A study of Homo sapiens with 33 samples.

Results

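The 48 genes described here encode proteins of the lysosome, of the proton pump that acidifies it and of autophagy, with 2 transcription factors that act on many of them. They were listed by gene symbol, with earlier results of these data known, and each symbol matched 1 of the 60675 genes in the count table. By role they were 6 lysosomal membrane proteins, 7 proteases, 8 glycosidases and sulfatases, 4 proteins of lipid breakdown, 7 membrane (V0) and accessory subunits of the proton pump, 7 cytosolic (V1) subunits, 7 autophagy proteins and the transcription factors TFEB and TFE3. HT29, a human colorectal adenocarcinoma cell line, was exposed for 24 h to an ethanol extract of Sagunja-tang, Samul-tang, Palmul-tang or Sibjeondaebo-tang, which are tonifying herbal formulas. The extracts were given at 20, 100 or 500 µg/mL, here the low, medium and high dose. Cells given vehicle, DMSO at 0.1% by the sample labels and at another percentage by the series text, served as the common control. Each dose of Sagunja-tang and Samul-tang had 2 libraries, each dose of Palmul-tang and Sibjeondaebo-tang had 3, and vehicle had 3, which makes 33 libraries. All come from a single cell line, and no label says that libraries of a group came from separate cultures, so p-values measure the spread between these libraries, which may be technical.

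The lysosome breaks down proteins, sugars and lipids delivered by endocytosis and autophagy with hydrolases that work in acid. The acid is made by the vacuolar ATPase, in which a cytosolic V1 sector splits ATP and turns a ring of V0 subunits in the membrane that carries protons inward. Autophagy encloses cytoplasm in a double membrane built with the ULK1 kinase, WIPI proteins and ubiquitin-like proteins of the ATG8 family, and then fuses with the lysosome. TFEB and TFE3 move to the nucleus when nutrient signalling at the lysosome falls, and bind a palindrome in the promoters of many lysosomal genes.

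That palindrome was looked for in RefSeq promoters (GRCh38.p14), which run from 250 bases before to 50 bases after a gene's start and which were found for 36 of the 48 genes. TCACGTGA, which reads the same on both strands and contains the shorter motif CACGTG, lay in 6 of these 36 promoters (16.7%). Over all 27305 promoters it lay in 1.04%, and over the 10956 promoters of genes tested here in 1.87%. CACGTG, within the palindrome or outside it, lay in 10 of the 36 (27.8%), in 7.43% of all promoters and in 10.1% of those of genes tested. The 6 genes were CLN3, ATP6V0D1, LAMP1, GAA, CTSA and MCOLN1. Of these 6, the 4 with the smallest unadjusted p over the 8 comparisons of a high dose with vehicle or with the low dose are shown, since their values below can be read beside the promoter. Capitals mark TCACGTGA. CLN3 is at chr16:28492025-28492324 on the minus strand, ATP6V0D1 at chr16:67481108-67481407 on the minus strand, LAMP1 at chr13:113296989-113297288 on the plus strand and GAA at chr17:80101331-80101630 on the plus strand.
CLN3: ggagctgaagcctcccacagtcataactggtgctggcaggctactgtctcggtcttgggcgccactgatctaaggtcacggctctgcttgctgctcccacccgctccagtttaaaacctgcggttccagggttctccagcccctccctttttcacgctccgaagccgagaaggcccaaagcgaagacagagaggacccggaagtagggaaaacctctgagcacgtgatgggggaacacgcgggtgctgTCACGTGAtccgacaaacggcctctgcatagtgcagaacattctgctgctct
ATP6V0D1: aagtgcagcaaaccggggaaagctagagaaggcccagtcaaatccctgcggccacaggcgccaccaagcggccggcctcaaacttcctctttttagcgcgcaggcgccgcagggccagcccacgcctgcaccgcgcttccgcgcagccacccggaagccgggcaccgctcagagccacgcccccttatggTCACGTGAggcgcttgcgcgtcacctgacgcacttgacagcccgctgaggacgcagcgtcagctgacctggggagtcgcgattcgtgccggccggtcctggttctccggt
LAMP1: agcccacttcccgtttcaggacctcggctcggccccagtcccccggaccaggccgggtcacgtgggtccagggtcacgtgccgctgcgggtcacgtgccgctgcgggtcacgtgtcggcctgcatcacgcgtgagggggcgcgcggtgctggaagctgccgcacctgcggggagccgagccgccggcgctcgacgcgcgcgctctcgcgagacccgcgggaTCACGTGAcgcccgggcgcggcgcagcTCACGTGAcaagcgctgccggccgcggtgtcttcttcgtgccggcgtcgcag
GAA: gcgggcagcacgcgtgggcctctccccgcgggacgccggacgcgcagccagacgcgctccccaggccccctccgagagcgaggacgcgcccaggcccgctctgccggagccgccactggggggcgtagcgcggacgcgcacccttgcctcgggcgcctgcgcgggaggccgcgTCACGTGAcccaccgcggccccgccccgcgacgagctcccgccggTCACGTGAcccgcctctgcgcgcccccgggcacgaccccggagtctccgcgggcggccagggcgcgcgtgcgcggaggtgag
LAMP1 and GAA each hold the palindrome at 2 places in this window. A match describes these letters only.

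Total counts per library were 28558866 to 49068019 in extract libraries and 31071786 to 35626398 in vehicle libraries. The 12 colon epithelial markers checked all passed the filter on low counts, at a summed 11600 to 14000 CPM, which are counts scaled to library size. KRT8 and KRT18 weighed most in that sum, with medians of 6490 and 3890 CPM. CDX1, GPA33, CDX2 and CEACAM5 were low, with medians of 0.877, 3.66, 4.4 and 6.54 CPM. Of 7 fibroblast markers only 2 passed the filter, and their list summed to 1.7 to 2.76 CPM. Of 5 endothelial markers 2 passed, with a sum of 1.23 to 2.25 CPM, and KDR was at 0 in all libraries. Of 7 immune markers 3 passed, with a sum of 1370 to 1820 CPM that came almost wholly from LYZ, which gut epithelium also makes. In bulk RNA such as this, fewer cells of a kind and less RNA per cell cannot be told apart. All libraries are labelled as 1 batch, but vehicle, which 12 of the comparisons share, carries sample codes that begin differently from those of the extracts. The codes of Sagunja-tang and Samul-tang also begin differently from those of Palmul-tang and Sibjeondaebo-tang. What a prefix stands for is not given, and for vehicle it cannot be told apart from the treatment. Of the 48 genes, 17 overlap another gene on the same strand and 24 on the opposite strand, and 7 have pseudogenes of the same name, so that the counts of these genes are less certain. Within 1 extract, the high and the low dose were compared with each other and not with vehicle, in a fit over all libraries.

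All 48 genes passed the filter and were tested with edgeR among 17432 genes. A gene was called at a Benjamini-Hochberg adjusted p below 0.05, and the error given after a log2 fold change is its SE. At the high dose of Sagunja-tang 12 of the 48 genes were called higher than vehicle and 11 lower, while 18.7% and 18% of all genes tested were. At the high dose of Samul-tang 4 were higher and 12 lower, against 15% and 12.5% of all genes. Palmul-tang at the high dose gave 8 higher and 13 lower, against 17.3% and 14.8%, and Sibjeondaebo-tang 15 higher and 9 lower, against 20.5% and 19.1%. As shares of the 48, these are 25.0% and 22.9% for Sagunja-tang, 8.33% and 25.0% for Samul-tang, 16.7% and 27.1% for Palmul-tang and 31.2% and 18.8% for Sibjeondaebo-tang. The median log2 fold change of the 48 lay between -0.03 and 0.06 in these comparisons, and that of all genes between -0.022 and -0.002, while single members were called in either direction.

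The lower doses gave fewer calls, as they did over all genes. At the medium dose 3 genes were higher and 8 lower with Sagunja-tang (8.4% and 8.05% of all genes), 7 and 7 with Samul-tang (10.9% and 9.27%), 6 and 8 with Palmul-tang (10.3% and 9.63%) and 12 and 5 with Sibjeondaebo-tang (14% and 12%). At the low dose the counts were 11 and 7 with Sagunja-tang (11.1% and 10.7%), 6 and 5 with Samul-tang (8.89% and 8.71%), 8 and 8 with Palmul-tang (10.6% and 9.74%) and 7 and 6 with Sibjeondaebo-tang (11.1% and 10.9%). Fewer genes separated the high from the low dose. With Sagunja-tang 1 gene was higher and 3 were lower at the high dose (3.33% and 3.86% of all genes), with Samul-tang 2 and 2 (4.1% and 3.43%), with Palmul-tang 4 and 5 (7.66% and 6.75%) and with Sibjeondaebo-tang 6 and 4 (15.5% and 14.3%). No member was called in opposite directions by different extracts, either against vehicle at the high dose or between doses. Of the 48, 14 were called at no high dose against vehicle and 34 in no comparison of high with low dose. The same was not counted over all genes tested. Of the 84 calls at the high dose against vehicle, 44 held when any single library of the groups compared was left out, and of the 27 calls between doses 13 did.

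**Figure D1:**
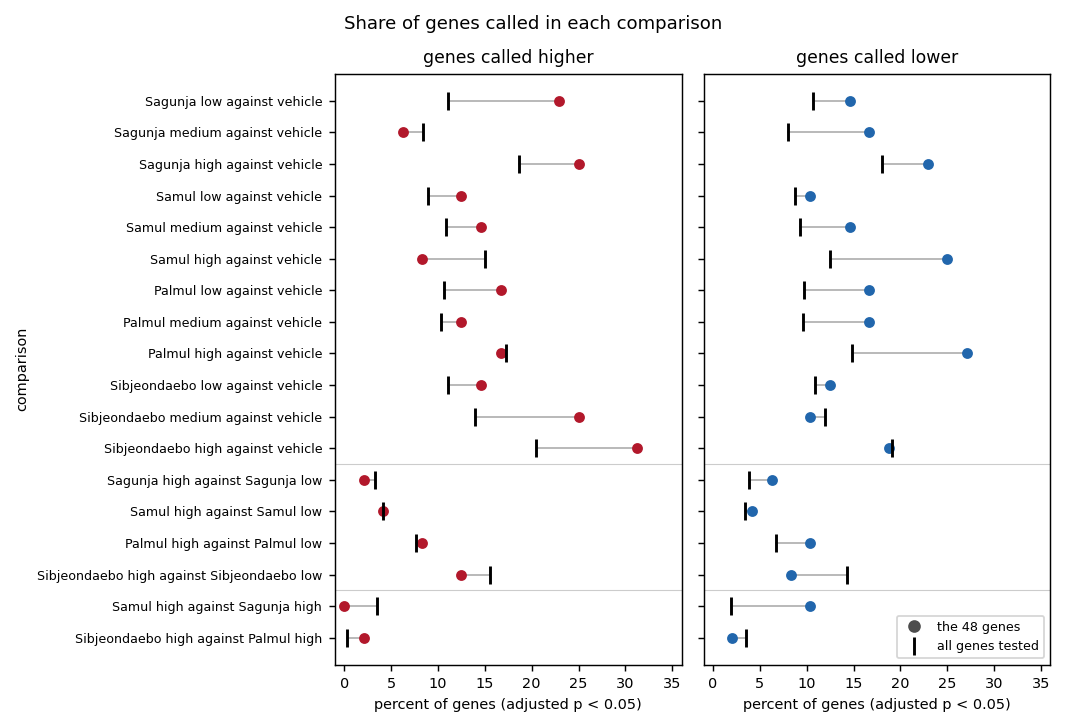
Percent of genes called at an adjusted p below 0.05 in each comparison, for the 48 genes (points) and for all 17432 genes tested (black ticks), higher on the left and lower on the right. At the high dose against vehicle the points lie between 8.33% and 31.2%, on either side of the ticks.

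**Figure D2:**
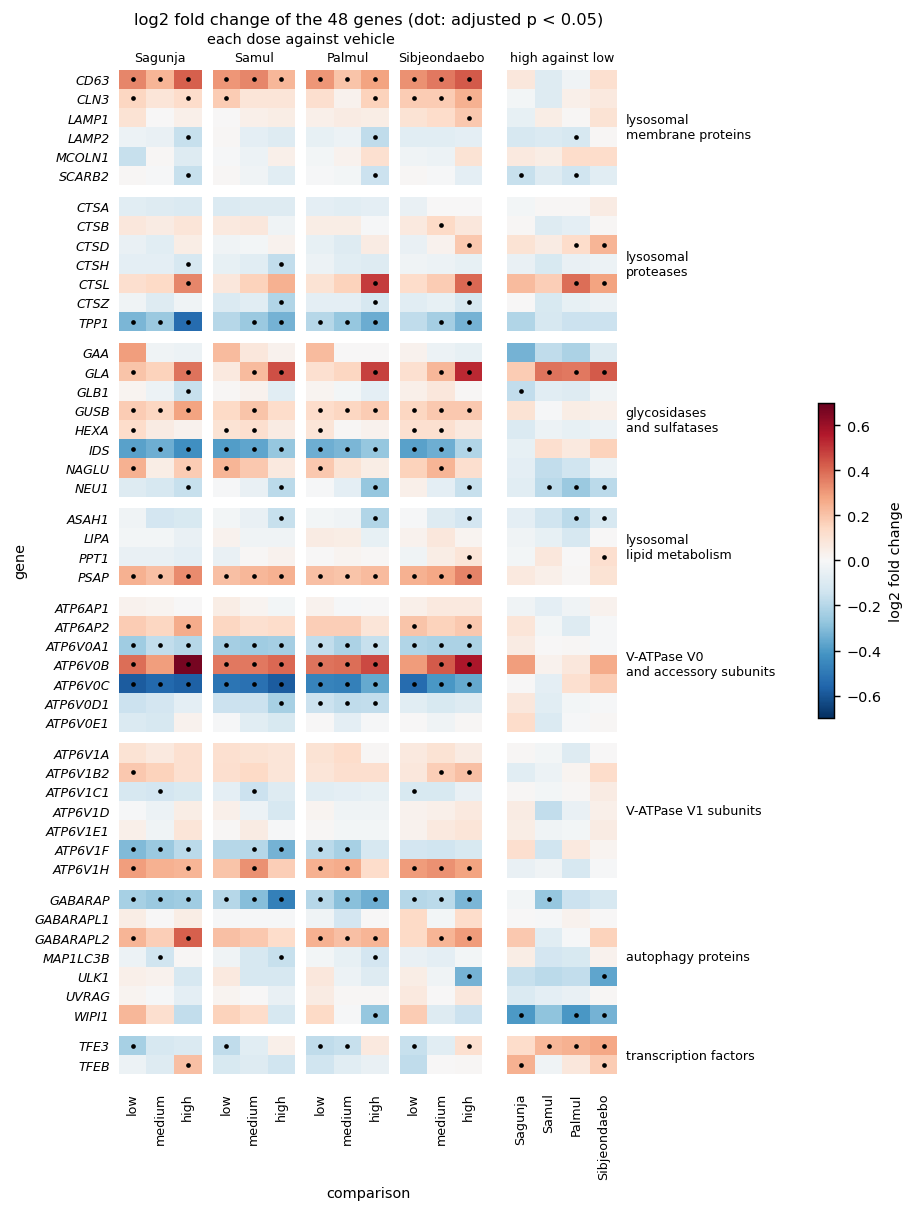
Log2 fold change (colour) of each of the 48 genes, in rows grouped by role, for each dose against vehicle and for the high against the low dose of each extract. Dots mark an adjusted p below 0.05. CD63, PSAP, ATP6V0C, ATP6V0A1, GABARAP and IDS carry a dot at all 12 doses, whereas GLA, TFE3, NEU1 and WIPI1 carry dots in 3 of the 4 columns on the right.

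Of the transcription factors, TFE3 was higher at the high than at the low dose in 3 extracts, and TFEB in 2. TFE3 had 81.6, 82.4 and 77.5 CPM at the high dose of Sibjeondaebo-tang, against 67.7, 67.4 and 64.8 CPM at the low dose (log2 0.27 ± 0.04, adjusted p = 7.12e-06). It had 77.5, 78.7 and 79.0 CPM at the high dose of Palmul-tang, against 68.1, 62.0 and 67.9 CPM at the low dose (0.25 ± 0.04, adjusted p = 6.48e-05). The groups did not overlap in either extract. With Samul-tang TFE3 rose by 0.23 ± 0.05 (adjusted p = 0.0031), a call lost without low-dose replicate 2 (adjusted p = 0.0979), and with Sagunja-tang the difference was 0.13 ± 0.05 (adjusted p = 0.102). The vehicle libraries, at 74.2, 76.3 and 73.1 CPM, lay between the low and the high dose in every extract but Sagunja-tang, where both doses were below vehicle. TFE3 was below vehicle at the low dose of all 4 extracts, by log2 values from -0.23 to -0.16, and above it at the high dose only by a call of 0.11 ± 0.04 with Sibjeondaebo-tang (adjusted p = 0.0287). That last call was lost without any of 4 libraries, high-dose replicates 1 and 2 and vehicle replicates 1 and 3 (adjusted p = 0.0844, 0.108, 0.0663 and 0.1). Of the low-dose calls, those of Palmul-tang and Samul-tang were lost without replicate 2 of the low dose (adjusted p = 0.0596 and 0.139).

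TFEB, the better known of the pair, had 16.1 and 15.9 CPM at the high dose of Sagunja-tang, against 13.6 and 13.4 CPM at the low dose and 13.6, 13.0 and 15.0 CPM in vehicle. The difference between doses was 0.25 ± 0.08 (adjusted p = 0.0497), and with Sibjeondaebo-tang it was 0.18 ± 0.06 (adjusted p = 0.0302). Against vehicle the high dose of Sagunja-tang was called at 0.21 ± 0.07 (adjusted p = 0.0248), and lost without either of its replicates 2 and 3 or without vehicle replicate 1 or 2 (adjusted p = 0.136, 0.064, 0.0601 and 0.12). The calls between doses also rest on few libraries. Without high-dose replicate 2, high-dose replicate 3, low-dose replicate 2 or low-dose replicate 3 the Sagunja-tang call was lost (adjusted p = 0.334, 0.0529, 0.166 and 0.208). The Sibjeondaebo-tang call was lost without high-dose replicate 1 or 3 or low-dose replicate 1 or 3 (adjusted p = 0.082, 0.124, 0.139 and 0.0509). MITF, another factor of the same family, had 0.104 to 0.517 CPM over all libraries and was called in none of the 8 comparisons of the high dose with vehicle or with the low dose.

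Among the membrane proteins, CD63 was higher at every dose of every extract while LAMP1, a protein often used to mark lysosomes, was called at 1 dose. CD63, a tetraspanin of late endosomes and lysosomes, had 350.4, 338 and 367 CPM at the high dose of Sibjeondaebo-tang, against 282, 261 and 239 CPM in vehicle (log2 0.43 ± 0.06, adjusted p = 5.36e-06). It was called at all 12 doses, with log2 values from 0.20 to 0.43, and 29 of the 30 extract libraries lay above all vehicle libraries. Its difference between the high and low dose was within -0.09 and 0.11 and was called in no extract. Vehicle replicate 3 had the lowest CD63 of the vehicle libraries, and without it 9 of the 12 calls were made. The high-dose Samul-tang call was lost without that library or without Samul-tang replicate 2 (adjusted p = 0.102 and 0.229).

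CLN3, whose loss causes juvenile neuronal ceroid lipofuscinosis, had 35.6, 35.6 and 34.9 CPM at the high dose of Sibjeondaebo-tang, against 30.2, 30.0 and 29.1 CPM in vehicle. The groups did not overlap, and the log2 fold change was 0.25 ± 0.04 (adjusted p = 4.56e-05). It rose at 7 of the 12 doses, but at 4 without vehicle replicate 3, and its Sagunja-tang call at the high dose (0.13 ± 0.05, adjusted p = 0.0352) was lost without Sagunja-tang replicate 2 or vehicle replicate 2 or 3 (adjusted p = 0.446, 0.0552 and 0.106). LAMP1 was called at 1 of 12 doses, the high dose of Sibjeondaebo-tang (0.19 ± 0.06, adjusted p = 0.00781), and not without replicate 3 of that dose (0.12, adjusted p = 0.1). The heavily glycosylated LAMP2 moved the other way with Palmul-tang, with 79.4, 77.6 and 77.9 CPM at the high dose, against 87.5, 90.4 and 89.0 CPM in vehicle (-0.18 ± 0.03, adjusted p = 0.000218). SCARB2, the receptor that carries glucocerebrosidase to the lysosome, fell by 0.15 ± 0.03 in the same comparison (adjusted p = 0.00128). With the trend on gene length removed, the SCARB2 value was -0.04 (adjusted p = 0.368). MCOLN1, a lysosomal calcium channel, was called nowhere, at 7.45 to 10.3 CPM in extract libraries and 8.85, 8.39 and 8.78 CPM in vehicle. Of the genes whose promoters are printed above, CLN3 thus rose at 7 of 12 doses and ATP6V0D1 fell at 4, while LAMP1 was called at 1 and GAA at none. The ATP6V0D1 count depended on single vehicle libraries, with 10 calls without replicate 1, 2 without replicate 2 and 1 without replicate 3.

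Among the proteases at the high dose, TPP1 was lower than vehicle in 4 extracts, CTSL higher in 3 and CTSD higher in 1. TPP1, a tripeptidyl peptidase, had 94.3 and 119 CPM at the high dose of Sagunja-tang, against 142, 149.7 and 174 CPM in vehicle (log2 -0.54 ± 0.08, adjusted p = 2.05e-05). It fell at the high dose of all 4 extracts, by 0.33 to 0.54, and at 10 of the 12 doses. Vehicle replicate 3 was the highest of its group, and without it 4 of the 12 doses were called. The call at the high dose of Samul-tang was lost without Samul-tang replicate 2 (adjusted p = 0.0806).

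CTSL, a cysteine protease expressed at a low level here, had 5.25, 6.43 and 5.38 CPM at the high dose of Palmul-tang, against 4.21, 4.64 and 4.09 CPM at the low dose and 4.36, 4.08 and 3.67 CPM in vehicle. Its groups did not overlap, and it rose by 0.49 ± 0.10 over vehicle (adjusted p = 0.000556) and by 0.39 ± 0.10 over the low dose (adjusted p = 0.00667). The call between doses was lost without high-dose replicate 2, the highest library (0.30, adjusted p = 0.0644). With Sibjeondaebo-tang CTSL rose by 0.40 ± 0.10 over vehicle (adjusted p = 0.00253), which held without any single library. Its rise of 0.28 ± 0.10 over the low dose (adjusted p = 0.033) was lost without any of 5 libraries, high-dose replicates 1, 2 and 3 and low-dose replicates 2 and 3 (adjusted p = 0.0601, 0.0521, 0.105, 0.116 and 0.0992). Its reads can also match 6 pseudogenes of the same name.

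CTSD, the main lysosomal aspartic protease and the member with the highest level per kilobase in vehicle (233 ± 7.13 CPM per kb, SD, n = 3), had 855, 840.5 and 799 CPM at the high dose of Sibjeondaebo-tang, against 711, 704 and 690.3 CPM at the low dose and 730.4, 748 and 704 CPM in vehicle. It rose by 0.24 ± 0.04 over the low dose (adjusted p = 9.98e-06) and by 0.19 ± 0.04 over vehicle (adjusted p = 0.000124), and both calls held without any single library. With Palmul-tang the rise over the low dose was 0.13 ± 0.04 (adjusted p = 0.0183), lost without high-dose replicate 1 or low-dose replicate 2 or 3 (adjusted p = 0.115, 0.144 and 0.0787). CTSZ and CTSH, 2 further cysteine proteases, were lower at the high dose of Samul-tang, by 0.21 ± 0.05 (adjusted p = 0.0011) and 0.17 ± 0.04 (adjusted p = 0.00242). CTSH lost that call without Samul-tang replicate 2 (adjusted p = 0.119). CTSB was called only at the medium dose of Sibjeondaebo-tang and CTSA at no dose.

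GLA and NEU1, which act on terminal sugars of glycolipids and glycoproteins, moved in opposite directions with dose. GLA is alpha-galactosidase A, the enzyme lacking in Fabry disease. In Sibjeondaebo-tang libraries GLA had 34.9, 35.5 and 37.1 CPM at the low dose, 39.1, 39.2 and 38.6 CPM at the medium dose and 49.2, 47.5 and 47.7 CPM at the high dose, beside 35.0, 35.1 and 29.5 CPM in vehicle. No library of a dose overlapped with the next dose. The high dose exceeded the low dose by 0.43 ± 0.06 (adjusted p = 1.7e-06) and vehicle by 0.53 ± 0.06 (adjusted p = 6.73e-08). With Palmul-tang GLA had 49.7, 43.8 and 45.3 CPM at the high dose, against 36.5, 34.2 and 36.7 CPM at the low dose (0.37 ± 0.06, adjusted p = 3.91e-05). With Samul-tang it had 44.6 and 46.2 CPM, against 34.7 and 35.1 CPM (0.38 ± 0.07, adjusted p = 0.000564). These calls between doses, and all 4 calls at the high dose against vehicle, held without any single library. With Sagunja-tang GLA had 46.4 and 40.2 CPM at the high dose, against 39.1 and 37.0 CPM at the low dose, a difference of 0.18 ± 0.07 that was not called (adjusted p = 0.102).

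NEU1, the lysosomal sialidase, had 50.9, 47.0 and 48.1 CPM at the high dose of Palmul-tang, against 60.3, 57.0 and 57.1 CPM at the low dose and 58.3, 60.8 and 56.4 CPM in vehicle. The high-dose libraries lay below both groups, with log2 values of -0.26 ± 0.05 against the low dose (adjusted p = 0.000361) and -0.27 ± 0.05 against vehicle (adjusted p = 0.000113). NEU1 also fell between doses with Sibjeondaebo-tang, by 0.19 ± 0.05 (adjusted p = 0.00267), without overlap of the groups. With Samul-tang the value was -0.19 ± 0.06 (adjusted p = 0.046), and leaving out either library of either dose ended that call (adjusted p = 0.167 and 0.187 without high-dose replicates 2 and 3, and 0.168 and 0.208 without low-dose replicates 2 and 3). Of its partner proteins in the lysosome, CTSA, the protective protein that binds NEU1, was not called, and GLB1, the beta-galactosidase of the same complex, fell only with Sagunja-tang, by 0.16 ± 0.04 against vehicle (adjusted p = 0.00458). That was lost without Sagunja-tang replicate 2 (adjusted p = 0.104).

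GUSB and IDS, which degrade glycosaminoglycans, differed from vehicle and were not called between doses. GUSB, beta-glucuronidase, had 72.5 and 63.0 CPM at the high dose of Sagunja-tang, against 56.3, 56.9 and 53.8 CPM in vehicle (0.28 ± 0.05, adjusted p = 9.76e-05). All 30 extract libraries lay above all vehicle libraries, and 10 of 12 doses were called. Without vehicle replicate 3 the GUSB calls numbered 5, and with only the groups compared in the fit 6. The Sagunja-tang value was 0.18 without replicate 2 (adjusted p = 0.0264), the higher of the pair. IDS, iduronate-2-sulfatase, had 79.3 and 95.9 CPM at the high dose of Sagunja-tang, against 117, 127 and 112 CPM in vehicle (-0.43 ± 0.08, adjusted p = 0.000196). It fell at all 12 doses, by 0.21 to 0.43, and all 30 extract libraries lay below all vehicle libraries. Without vehicle replicate 2, the highest of its group, 10 of the 12 calls were made, and the high-dose calls of Samul-tang and Sibjeondaebo-tang were lost (adjusted p = 0.0827 and 0.13). The Samul-tang call was also lost without its replicate 2 (adjusted p = 0.139), and the Sibjeondaebo-tang call without its replicate 2 or 3 (adjusted p = 0.0506 and 0.127). Each gene has pseudogenes of the same name, 12 for GUSB and 1 for IDS, with which reads could have been shared. GAA, the acid alpha-glucosidase that breaks down glycogen, had the lowest level of the 48 per kilobase (0.818 ± 0.0748 CPM per kb in vehicle, SD, n = 3) and was called at no dose. HEXA, a subunit of beta-hexosaminidase, was higher at 6 of the 12 doses, none of them a high dose. Without vehicle replicate 2 or without replicate 3 it was called at 1. Over all 12 doses, called or not, its log2 values ran from 0.01 to 0.13. NAGLU, which takes part in the breakdown of heparan sulfate, was higher at 5 doses, and at 3 and 2 without those vehicle libraries in turn. Its values over all 12 doses ran from 0.05 to 0.25.

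Of the proteins of lipid breakdown, PSAP was higher at every dose and ASAH1 lower at the high dose of 3 extracts. PSAP, the precursor of the saposins that present sphingolipids to their enzymes, had 469, 499.9 and 506 CPM at the high dose of Sibjeondaebo-tang, against 407, 398 and 354 CPM in vehicle (0.35 ± 0.06, adjusted p = 3.7e-05). It was called at all 12 doses, by 0.20 to 0.35, with 29 of 30 extract libraries above all vehicle libraries. Vehicle replicate 3 was the lowest, and without it 5 of those 12 calls were made, the high dose of Palmul-tang not among them (0.16, adjusted p = 0.0599). The high-dose PSAP call of Samul-tang was lost without its replicate 2 (adjusted p = 0.101). ASAH1, acid ceramidase, had 31.1, 30.6 and 32.7 CPM at the high dose of Palmul-tang, against 37.2, 36.7 and 34.1 CPM at the low dose and 35.7, 37.3 and 36.1 CPM in vehicle. It fell by 0.21 ± 0.04 against vehicle (adjusted p = 0.000745) and by 0.19 ± 0.04 against the low dose (adjusted p = 0.0031), and the groups did not overlap. With the trend on gene length removed, the value against vehicle was -0.12 (adjusted p = 0.128) and against the low dose -0.15 (adjusted p = 0.0916). PPT1, a thioesterase that removes fatty acids from proteins, rose by 0.12 ± 0.03 between the doses of Sibjeondaebo-tang (adjusted p = 0.00532), and not without high-dose replicate 1 (0.08, adjusted p = 0.0752). LIPA, the acid lipase, was called at no dose.

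The V0 subunits held the log2 fold changes farthest from 0 in each direction among the 48 genes against vehicle, and both came from subunits of the proton-carrying ring, ATP6V0B higher and ATP6V0C lower. ATP6V0B, a ring subunit, had 92.4 and 68.0 CPM at the high dose of Sagunja-tang, against 57.1, 49.1 and 44.2 CPM in vehicle (0.67 ± 0.12, adjusted p = 0.000123). Without Sagunja-tang replicate 2, the highest of all libraries, the value was 0.44 (adjusted p = 0.0313). ATP6V0B rose at the high dose of all 4 extracts, by 0.40 to 0.67, and at 10 of the 12 doses. Of the 12 doses, 5 were called without vehicle replicate 2 and 4 without vehicle replicate 3. The call with Samul-tang was lost without its replicate 2 or vehicle replicate 3 (adjusted p = 0.184 and 0.095).

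ATP6V0C, the other ring subunit and the second highest member per kilobase in vehicle (188 ± 21.0 CPM per kb, SD, n = 3), had 173 and 205 CPM at the high dose of Samul-tang, against 250.2, 281 and 313 CPM in vehicle (-0.58 ± 0.10, adjusted p = 0.000103). It fell at all 12 doses, by 0.36 to 0.58, and every extract library lay below every vehicle library. All 12 calls were made without any single vehicle library, and 11 of the 12 held without each library of their own group. The vehicle libraries spread widely for both ring subunits, and replicate 3 was at once the lowest in ATP6V0B and the highest in ATP6V0C. ATP6V0C has 4 named pseudogenes.

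ATP6V0A1, the subunit that forms the proton path beside the ring, had 64.2 and 70.1 CPM at the high dose of Sagunja-tang, 63.7 and 66.2 CPM with Samul-tang, 68.1, 67.9 and 70.9 CPM with Palmul-tang and 69.4, 65.8 and 62.8 CPM with Sibjeondaebo-tang. Vehicle had 76.7, 77.4 and 76.7 CPM, above all 30 extract libraries, and the gene was called lower at all 12 doses, by 0.16 to 0.25. Without Sagunja-tang replicate 2 the high-dose call of that extract was lost (adjusted p = 0.184), and the Palmul-tang call was lost without its replicate 1 or 2 (adjusted p = 0.0524 and 0.0538). With the gene length trend removed 10 of the 12 calls were made. ATP6V0D1, the stalk subunit, fell at the high dose of Samul-tang (-0.23 ± 0.06, adjusted p = 0.00322) and Palmul-tang (-0.17 ± 0.05, adjusted p = 0.0099), and the second was lost without vehicle replicate 3 (adjusted p = 0.0601). ATP6V0E1 and the accessory protein ATP6AP1 were called at no dose. The accessory protein ATP6AP2 rose with Sagunja-tang and Sibjeondaebo-tang at the high dose, by 0.26 and 0.19. It was called at 3 of the 12 doses, and at 12, 2 and 1 without vehicle replicates 1, 2 and 3 in turn. Without vehicle replicate 3 the Sibjeondaebo-tang value was 0.10 (adjusted p = 0.211), and without Sagunja-tang replicate 2 that of Sagunja-tang was 0.17 (adjusted p = 0.186). No V0 or accessory gene was called between the high and the low dose in any extract. In a single extract 3.33% to 15.5% of all genes tested were called higher and 3.43% to 14.3% lower. The uncalled log2 values between doses ran from 0.03 to 0.29 for ATP6V0B and from -0.07 to 0.18 for ATP6V0C.

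Of the 7 genes of the V1 sector, 3 were called at 1 or more high doses against vehicle and none between doses. In a single high-dose comparison with vehicle, 15% to 20.5% of all genes tested were called higher and 12.5% to 19.1% lower. Between doses the shares were 3.33% to 15.5% and 3.43% to 14.3%. Calls over several comparisons were not counted over all genes. ATP6V1H, a regulatory subunit, had 35.8, 39.2 and 42.4 CPM at the high dose of Sibjeondaebo-tang, against 35.8, 32.2 and 28.2 CPM in vehicle (0.28 ± 0.08, adjusted p = 0.00479). The lowest extract library met the highest vehicle library, and without vehicle replicate 3 the call was lost (0.20, adjusted p = 0.0573). ATP6V1H was called at 8 of the 12 doses, and without that library at 1. At the high dose of Sagunja-tang its log2 value was 0.24, and 0.08 without Sagunja-tang replicate 2. ATP6V1F had 44.7 and 49.0 CPM at the high dose of Samul-tang, against 54.0, 59.1 and 64.0 CPM in vehicle, and fell by 0.33 ± 0.07 (adjusted p = 0.000856) without loss of the call when any library was left out. It was lower at 7 of the 12 doses, but at 12, 4 and 2 without vehicle replicates 1, 2 and 3 in turn. ATP6V1B2, a subunit of the ATP-splitting head, rose by 0.21 ± 0.06 with Sibjeondaebo-tang (adjusted p = 0.00406), and not without replicate 3 (0.14, adjusted p = 0.0575). The catalytic subunit gene ATP6V1A was called at no dose, with log2 values from 0.01 to 0.13, but at 6 without vehicle replicate 1. ATP6V1C1, a stalk subunit, was lower at 3 of the 12 doses, none of them a high dose, and at 0 without vehicle replicate 1, and ATP6V1D and ATP6V1E1 were called at none.

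The ATG8 family split. GABARAP, which is coupled to lipid on autophagosomes, had 72.3 and 80.3 CPM at the high dose of Samul-tang, against 91.3 and 93.3 CPM at the low dose and 103, 104 and 113 CPM in vehicle. It fell by 0.48 ± 0.06 against vehicle (adjusted p = 2.46e-06) and by 0.27 ± 0.07 against the low dose (adjusted p = 0.00957). The call between doses was lost without high-dose replicate 2 or low-dose replicate 2 or 3 (adjusted p = 0.201, 0.0521 and 0.0947). Against vehicle GABARAP fell at all 12 doses, by 0.19 to 0.48, with no overlap between extract and vehicle libraries. Without vehicle replicate 3, the highest, 7 of those calls were made, and the high-dose call of Sagunja-tang was lost without its replicate 3 (adjusted p = 0.0529). GABARAPL2 went the other way, with 50.7, 54.5 and 54.4 CPM at the high dose of Sibjeondaebo-tang, against 46.5, 42.4 and 40.5 CPM in vehicle (0.30 ± 0.07, adjusted p = 0.000861). It was called at 7 of the 12 doses, but at 9, 5 and 2 without vehicle replicates 1, 2 and 3 in turn. At the high dose of Samul-tang the value was 0.13 ± 0.08 and was not called (adjusted p = 0.235). With Sagunja-tang the value was 0.42 ± 0.08 (adjusted p = 9.22e-05), or 0.27 without replicate 2 (adjusted p = 0.028).

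MAP1LC3B, the LC3 protein by which autophagy is usually followed, had 43.3 and 45.4 CPM at the high dose of Samul-tang, against 50.4, 52.0 and 46.3 CPM in vehicle (-0.16 ± 0.05, adjusted p = 0.0109). That call was lost without Samul-tang replicate 2 or vehicle replicate 2 (adjusted p = 0.152 and 0.0713). The value with Palmul-tang was -0.13 ± 0.04 (adjusted p = 0.0195), lost without its replicate 2 or 3 or vehicle replicate 1 or 2 (adjusted p = 0.0773, 0.0503, 0.0609 and 0.144). GABARAPL1 had 6.49 to 9.99 CPM in extract libraries, against 8.75, 8.53 and 7.41 CPM in vehicle, and was called nowhere. These are RNA levels, and the lipid-bound form of the proteins was not measured.

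WIPI1 and ULK1 act early in autophagosome formation. WIPI1 was lower at the high than at the low dose of 3 extracts and ULK1 of 1, Sibjeondaebo-tang. WIPI1, which binds phosphoinositides on the forming membrane, had 4.73, 4.77 and 4.57 CPM at the high dose of Palmul-tang, against 6.84, 5.77 and 6.06 CPM at the low dose (-0.41 ± 0.08, adjusted p = 0.00116). With Sibjeondaebo-tang it had 4.61, 5.5 and 5.24 CPM, against 6.21, 6.35 and 6.71 CPM (-0.33 ± 0.08, adjusted p = 0.0033). The doses did not overlap, and both calls held without any single library. With Sagunja-tang the value was -0.40 ± 0.10 (adjusted p = 0.0204), lost without replicate 2 of the high or of the low dose (adjusted p = 0.151 and 0.239), and with Samul-tang -0.28 ± 0.10 (adjusted p = 0.09). Vehicle, at 5.85, 5.26 and 5.87 CPM, lay between the doses of Sagunja-tang and overlapped a dose in the other extracts. Against vehicle only the high dose of Palmul-tang was called (-0.27 ± 0.09, adjusted p = 0.0184). That was lost without Palmul-tang replicate 3 or vehicle replicate 1 or 3 (adjusted p = 0.0618, 0.0627 and 0.0741). ULK1, the kinase that starts autophagy, had 18.4, 18.9 and 21.2 CPM at the high dose of Sibjeondaebo-tang, against 23.5, 25.8 and 26.5 CPM at the low dose and 23.4, 24.6 and 25.2 CPM in vehicle. It fell by 0.37 ± 0.06 against the low dose (adjusted p = 3.27e-05) and by 0.33 ± 0.06 against vehicle (adjusted p = 0.000151), and both held without any single library. In the other extracts ULK1 differed between doses by -0.19 to -0.16 and was not called. UVRAG was called at no dose.

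**Figure D3:**
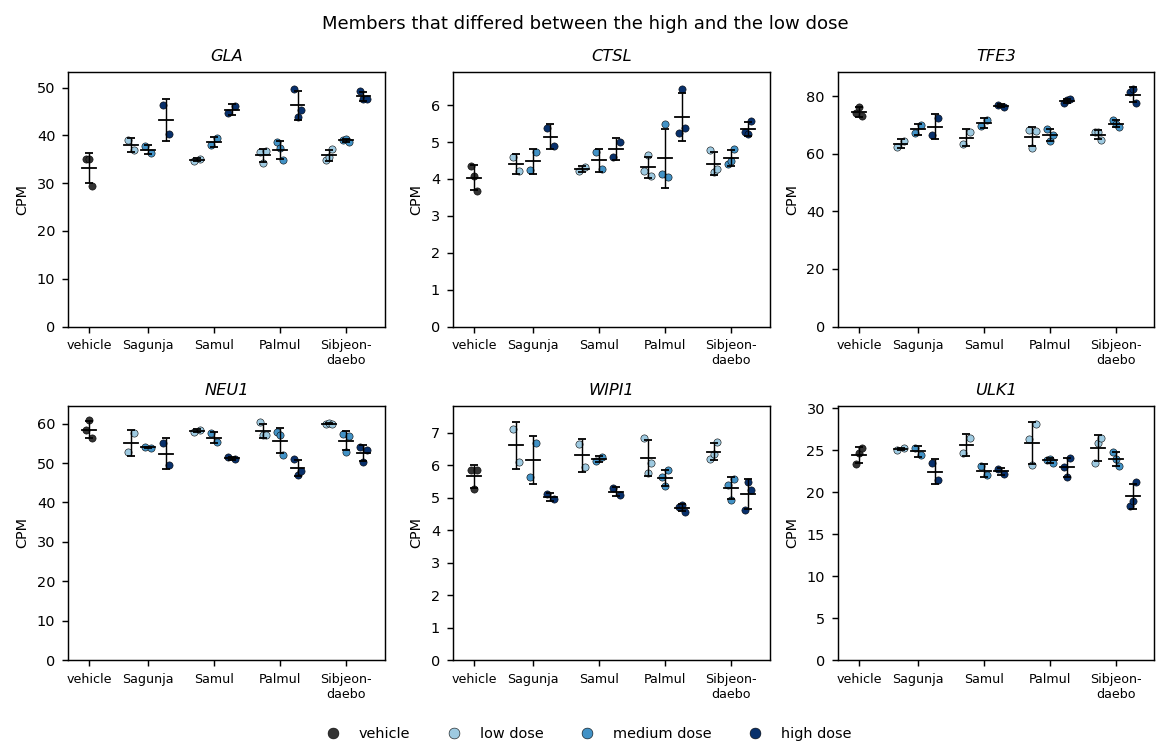
CPM of 6 genes called between the high and the low dose in at least 1 extract, by library (points), with the group mean (bar) and SD. Vehicle is at the left of each panel, then each extract from the low to the high dose. GLA, CTSL and TFE3 are highest at the high dose of Sibjeondaebo-tang or Palmul-tang, and NEU1, WIPI1 and ULK1 are lowest there.

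Set side by side over several comparisons, the calls of the members were as follows. Such calls were not counted over all genes tested, so no share of all genes stands beside them. CD63 and PSAP were higher, and ATP6V0A1, ATP6V0C, GABARAP and IDS lower, at all 12 doses of the extracts, and of these only GABARAP was called between doses, in 1 extract. These calls are not equally firm. For CD63, PSAP, ATP6V0A1, GABARAP and IDS, fewer of them than for ATP6V0C held without each library of their own extract group. A comparison that shares its vehicle with 11 others is not separate evidence, and with only the groups compared in the fit, the genes called at all 12 doses were ATP6V0C and IDS. With the gene length trend removed they were CD63, PSAP, ATP6V0C and GABARAP, so that only ATP6V0C was called at all 12 under both settings. The share of counts from the 13 mitochondrially encoded protein genes moved with the same contrast, at 4.65 to 7.53% (median 6.28%) in the extract libraries and 7.43 to 9.8% (median 8.48%) in vehicle, and its part in these results was not tested. Between doses, GLA and TFE3 were called higher and NEU1 and WIPI1 lower in 3 of the 4 extracts. Only for GLA did the calls in all 3 hold without any single library. As given above, TFE3 and NEU1 could lose the Samul-tang call and WIPI1 the Sagunja-tang call. Comparisons between doses are between extract libraries, but the fit that gave their spread also held the vehicle libraries. With only the groups compared in the fit, 0 of 17432 genes were called between the doses of Sagunja-tang. At the high dose the mitochondrial share was 5.38 to 6.99% with Palmul-tang and 6.09 to 6.34% with Sibjeondaebo-tang, against 6.39 to 6.81% and 6.34 to 7.53% at their low doses. With Samul-tang both high-dose libraries were at 5.98%, below the low dose at 6.05 to 6.68%, and with Sagunja-tang the high dose at 4.65 to 5.71% overlapped the low dose at 5.15 to 5.99%.

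**Figure D4:**
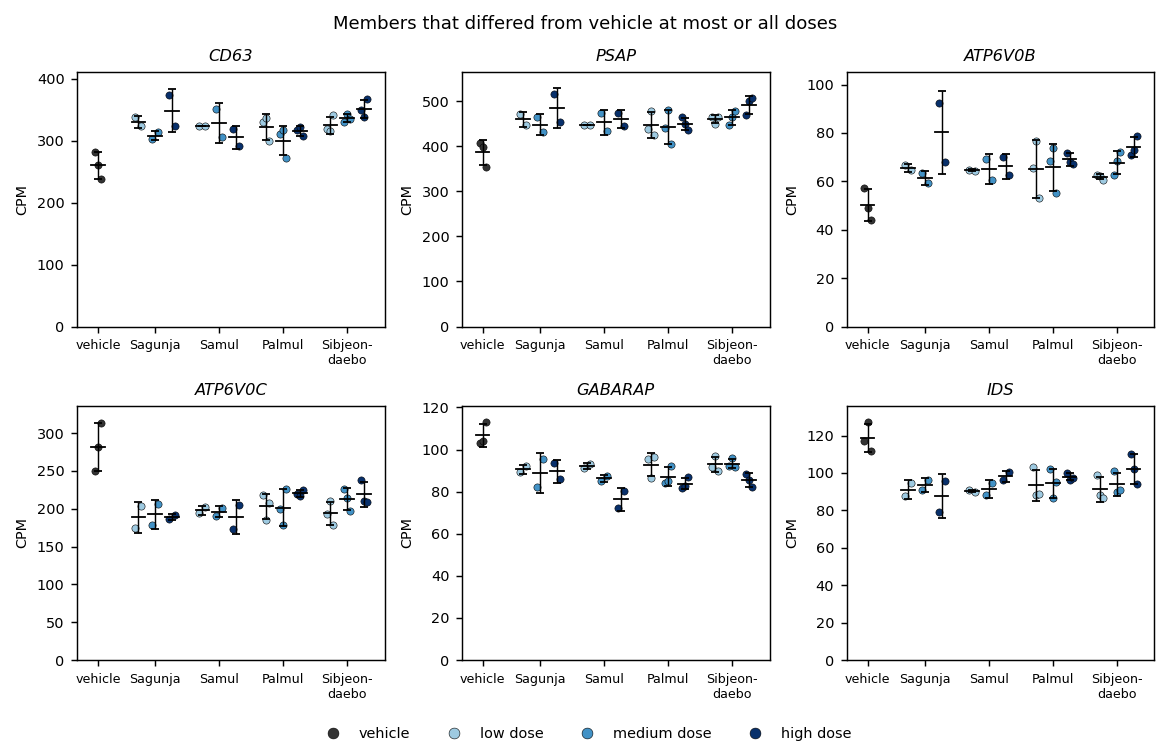
CPM of 6 genes that differed from vehicle at 10 or more of the 12 doses, by library (points), with the group mean (bar) and SD, arranged as in the plot of genes that moved with dose. Nearly all extract libraries lie above vehicle for CD63, PSAP and ATP6V0B, and all lie below it for ATP6V0C, GABARAP and IDS.

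Formulas were compared at the high dose in 2 pairs. At the high dose of Samul-tang against that of Sagunja-tang, 0 of the 48 were called higher and 5 lower (10.4%), where 3.55% and 1.92% of all genes were. Of the 48, 3 and 10 had an unadjusted p below 0.05, and DESeq2 called 0 and 5. The 5 were TFEB, CTSZ, GABARAPL2, GABARAP and MAP1LC3B, and 3 of them are of the ATG8 family. TFEB had 12.8 and 12.3 CPM with Samul-tang, against 16.1 and 15.9 CPM with Sagunja-tang (-0.35 ± 0.08, adjusted p = 0.0109). Without Sagunja-tang replicate 2 none of the 5 was called, with adjusted p = 0.149 for TFEB, 0.668 for CTSZ, 0.745 for GABARAPL2, 0.589 for GABARAP and 0.737 for MAP1LC3B. No member was called without either Samul-tang library, and 16 were without Sagunja-tang replicate 3.

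At the high dose of Sibjeondaebo-tang, which adds herbs to those of Palmul-tang, against that of Palmul-tang, CTSD was higher (0.13 ± 0.04, adjusted p = 0.04) and ULK1 lower (-0.24 ± 0.06, adjusted p = 0.0222). Those were the only 1 and 1 of the 48, against 0.35% and 3.52% of all genes. Each call was lost without any of 4 of the 6 libraries, with adjusted p up to 0.184 for CTSD and up to 0.144 for ULK1. The log2 fold change was above 0 in 42 of the 48 genes, with a median of 0.07, beside a median of 0.009 over all genes tested. The share of all genes above 0 was not counted. Of the 48, 15 were higher and 1 lower at an unadjusted p below 0.05, and DESeq2 called 2 and 1. Whether the effect of dose itself differed was tested as an interaction. With Samul-tang against Sagunja-tang and with Sibjeondaebo-tang against Palmul-tang, edgeR called 0 members, with smallest adjusted p = 0.324 and 0.274, and DESeq2 called 0 in both. Of all genes, the first test called 0.115% higher and 0.0229% lower, and the second 0.0287% and 1.42%. In the first test 0 members had a larger and 7 a smaller value at an unadjusted p below 0.05, and in the second 4 and 1. The differences in dose effect ranged from -0.28 to 0.20 and from -0.20 to 0.18 on the log2 scale.

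Wider lists of lysosome and autophagy genes were also chosen with earlier results of these data known. Among 37 tested of 39 other lysosomal enzymes and membrane genes, 1 was higher and 12 were lower at the high than at the low dose of Palmul-tang, 3 and 10 with Sibjeondaebo-tang, 2 and 5 with Sagunja-tang and 1 and 6 with Samul-tang. As shares of the 37, these are 2.7% and 32.4% with Palmul-tang (7.66% and 6.75% of all genes), 8.11% and 27.0% with Sibjeondaebo-tang (15.5% and 14.3%), 5.41% and 13.5% with Sagunja-tang (3.33% and 3.86%) and 2.7% and 16.2% with Samul-tang (4.1% and 3.43%). CTSC, a protease that activates granule serine proteases, rose between doses in all 4 extracts, by 0.18 to 0.28. CTSO, another cysteine protease, fell in all 4, by 0.48 to 0.66, and NPC2, which carries cholesterol out of the lysosome, had -0.43 ± 0.06 with Samul-tang (adjusted p = 7.02e-06).

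Among 46 other autophagy genes, 2 were higher and 9 lower at the high than at the low dose of Palmul-tang, 6 and 8 with Sibjeondaebo-tang, 2 and 5 with Sagunja-tang and 1 and 4 with Samul-tang. As shares of the 46, these are 4.35% and 19.6%, 13.0% and 17.4%, 4.35% and 10.9%, and 2.17% and 8.7%, in the same order. Of all genes, 7.66% and 6.75% were called with Palmul-tang and 15.5% and 14.3% with Sibjeondaebo-tang. With Sagunja-tang 3.33% and 3.86% were, and with Samul-tang 4.1% and 3.43%. The shares of the 46 with Sibjeondaebo-tang lie near those of all genes. TP53INP2, which takes part in autophagosome formation, fell against vehicle by 0.90 to 1.18 and against the low dose by 0.50 to 0.85 in all 4 extracts. TP53INP1, its relative and a target of p53, fell against the low dose by 0.42 to 0.94 in all 4, and OPTN, an autophagy receptor, by 0.27 to 0.38 in 3. Among 11 tested of 14 other proton pump genes, 0 were higher between doses with any extract, where 3.33% to 15.5% of all genes were. Of the 11, 3 were lower with Palmul-tang (6.75% of all genes), 3 with Sibjeondaebo-tang (14.3%), 2 with Sagunja-tang (3.86%) and 2 with Samul-tang (3.43%). Of these, ATP6V1B1, the B subunit known from acid-secreting kidney and inner ear cells, fell in all 4 extracts against the low dose, by 0.71 to 0.78. Among 19 tested of 21 genes of nutrient signalling at the lysosome, 2 were higher and 5 lower between the doses of Sibjeondaebo-tang (15.5% and 14.3% of all genes). With the other extracts 0 were higher, and 4 were lower with Palmul-tang (6.75%), 3 with Sagunja-tang (3.86%) and 2 with Samul-tang (3.43%). Of these, FNIP1, a partner of folliculin, fell between doses in 3 extracts, by 0.27 to 0.28, and folliculin itself, FLCN, in 2, by 0.31 and 0.39. LAMTOR4, a subunit of the Ragulator scaffold, rose over vehicle by 0.49 to 0.87 in all 4 and was not called between doses. Results under other settings and with single libraries left out were summarised for the 48 genes only. How far the calls of these wider lists depend on them is not reported here.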

How the data were processed

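RNA of 33 libraries was sequenced. The authors deposited RSEM expected counts per gene, unscaled, in a table of 273 columns, of which 33 were used and 240 were not. Per the submitters' processing notes, reads passed FastQC 0.11.9, Trim Galore 0.6.5, STAR 2.7.3a and RSEM 1.3.3 on hg38 (GRCh38). The annotation release and the strand setting of the counting are not given in the sources used here. Of all values 9.45% were not whole, and expected counts were rounded. Lengths and overlaps came from GENCODE 29, in which 57055 of 60675 genes were found.

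edgeR 4.0.16 (R 4.3.3, limma 3.58.1) fitted 1 coefficient for each of 13 groups over all libraries, with TMM scaling, a minimum count of 10 in filterByExpr and quasi-likelihood tests, which left 20 residual degrees of freedom. P-values were adjusted by Benjamini and Hochberg over 17432 genes, two-sided, at a threshold of 0.05, and an SE is the log2 fold change over the square root of F. CPM used TMM library sizes, and levels of different genes were compared per kilobase of exon. The analysis was tested on simulated data. Alternatives were RLE size factors, DESeq2 1.42.0, no filter, only the groups compared, a replicate block, removal of the gene length trend and each library left out. Of each role, up to 3 genes with the smallest p over the high-dose comparisons were described in full, with the ATG8 family and MITF. Members and lists were chosen with earlier results of these data known. Replicate 1 of Sagunja-tang and Samul-tang was not analysed here.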

Additional observations from a re-analysis of the deposited data

How the results depend on the processing

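Of 267 alternative values for 23 named results, 253 kept direction and call, 14 kept direction only and 0 reversed. Each named result was picked at its gene's smallest p over the 8 high-dose comparisons, so its stability does not stand for other calls. Of all 84 member calls at the high dose against vehicle, 40 were lost without some library. With only the groups compared in the fit, the members called numbered 8 for high-dose Sagunja-tang against vehicle, 5 for its medium dose, 9 for medium Samul-tang, 5 for medium and 8 for low Palmul-tang, 0 and 16 between the doses of Sagunja-tang and Sibjeondaebo-tang, and 0 for Samul-tang against Sagunja-tang. Without the gene length trend, that last count was 1 and Sibjeondaebo-tang against Palmul-tang 4. The cause was not tested. With 1 library left out, counts against vehicle ranged at the high dose over 13 to 23 (Sagunja-tang), 7 to 18 (Samul-tang), 16 to 22 (Palmul-tang) and 19 to 25 (Sibjeondaebo-tang), at the medium dose over 0 to 11, 2 to 17, 5 to 17 and 11 to 21, and at the low dose over 4 to 21, 4 to 18, 3 to 17 and 7 to 15, in the same order. Between doses they ranged over 0 to 10, 1 to 3, 7 to 10 and 6 to 10, between extracts over 0 to 16 and 0 to 2, and in the interactions over 0 to 5 and 0 to 0. The lowest high-dose counts, 13 and 7, came without replicate 2 of Sagunja-tang and of Samul-tang. Without vehicle replicate 3 the count was 5 for medium and 5 for low Palmul-tang, and 4 for medium Sagunja-tang. Leaving 1 library in an arm assumes that it varies like the other groups. Same-numbered libraries correlated at no more than 0.109 in their deviations. That does not show whether the numbers pair the samples, and the main fit did not pair them. With a replicate block 24, 16, 21 and 24 members were called at the high dose against vehicle, and 4, 4, 10 and 14 between doses.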
